A study of Homo sapiens with 31 samples.

Results

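The mRNAs described here encode 9 proteins that work with, or hold back, the eIF4F complex: the helicase cofactors EIF4B and EIF4H, the scaffold EIF4G1 and its relative EIF4G2, the cap-binding proteins EIF4E and EIF4E2, and the repressors PDCD4, EIF4EBP1 and EIF4EBP2. Each was followed by 1 Ensembl transcript, 9 of 227264 listed in the deposited files and 9 of 35499 left when 1 transcript per locus was kept. A transcript was taken by its identifier and kept if its counted length lay within 5 of the protein's length in amino acids minus 9. The transcripts were ENST00000262056 (EIF4B), ENST00000265753 (EIF4H), ENST00000346169 (EIF4G1), ENST00000339995 (EIF4G2), ENST00000450253 (EIF4E), ENST00000258416 (EIF4E2), ENST00000280154 (PDCD4), ENST00000338825 (EIF4EBP1) and ENST00000373218 (EIF4EBP2). All 9 met this rule exactly, from EIF4EBP1 (118 amino acids) to EIF4G1 (1599 amino acids).

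The libraries were made from HEK293 T-REx, an established line of human embryonic kidney origin built for inducible transgenes. The series asked how the helicase eIF4A1 and the RNA-binding protein LARP1 act on translation when mTORC1 is inhibited. Ribosome profiling, which sequences the mRNA fragments protected by ribosomes (footprints), covered 3 genotypes: naive, EIF4A1 knockout (KO) and EIF4A2 KO. Each genotype had 2 libraries in DMSO, the solvent, and 1 library each after 30 min of 1 µM or 10 µM PP242, an inhibitor of the mTOR kinase. RNA-seq covered naive and EIF4A1 KO cells without drug, with 2 libraries each. In the pulldowns, eIF4A1 or eIF4A2 carried a streptavidin-binding peptide (SBP), and the RNA captured with it was sequenced beside the input lysate, with 2 libraries of each kind per protein. A further SBP-eIF4A1 experiment followed 72 h of siRNA: control siRNA (siControl) with 2 inputs and 2 pulldowns, and LARP1 siRNA (siLARP1) with 2 inputs and 1 pulldown. The labels name no clone or number of clones for a KO and no promoter or expression level for an SBP fusion, so differences between cell lines enter every comparison with naive cells. The RNA-seq, EIF4A2 KO profiling and SBP-eIF4A2 libraries were numbered as a separate, later set of samples. Comparisons of EIF4A2 KO with other genotypes, of SBP-eIF4A1 with SBP-eIF4A2 and of footprints with RNA cross these sets. The labels do not say whether the sets were made at different times, so such a difference cannot be told apart. The labels do not say whether replicates were separate cultures, so the p-values measure only the spread between these libraries. The cell line's identity was not checked against marker genes here, because the files give transcript identifiers without gene names.

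In eIF4F, eIF4E binds the mRNA cap, eIF4G bridges the other factors and eIF4A unwinds the leader of the mRNA. eIF4B and eIF4H stimulate eIF4A, and PDCD4 binds and blocks it. The 4E-binding proteins, dephosphorylated when mTORC1 is off, compete with eIF4G for eIF4E. mTORC1 also controls mRNAs that begin with a terminal oligopyrimidine (TOP) motif, a C at the cap followed by a run of pyrimidines; most encode ribosomal proteins and elongation factors, and LARP1 binds their capped ends. EIF4B is a known TOP mRNA.

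Totals over 1 transcript per locus were 2514937 to 6420054 counts in ribosome profiling, 11889502 to 17642142 in the pulldowns and inputs and 19706389 to 21631059 in RNA-seq. Levels are given as CPM, counts scaled to library size with edgeR's TMM factors within an assay, so every change is relative to the other mRNAs of that assay. A difference was called at an adjusted p under 0.05 in edgeR's quasi-likelihood test over all transcripts. The labels were checked on the targeted genes. EIF4A1 footprints in DMSO stood at 506 and 597 CPM in EIF4A1 KO against 2598 and 2674 in naive cells, a log2 difference of -2.25 (SE 0.056, edgeR adjusted p 6.49e-70). Its paralog EIF4A2 went from 160.5 and 132 to 738 and 709 CPM in the same libraries. In EIF4A2 KO cells EIF4A2 footprints stood at 61.5 and 62.7 CPM, a difference of -1.24 (SE 0.084, edgeR adjusted p 4.28e-26) from naive cells. LARP1 input RNA stood at 94.7 and 76.8 CPM after siLARP1 against 229 and 219 after siControl. 1 library went against its label: the library labelled siLARP1 input replicate 2 of SBP-eIF4A1 cells held 1826 CPM of EIF4A1 and 1057 CPM of EIF4A2. The other SBP-eIF4A1 inputs held 3091 to 3747 CPM of EIF4A1 and 292 to 384 CPM of EIF4A2, while the SBP-eIF4A2 inputs, scaled separately, held 1869.5 and 1919 CPM of EIF4A1 and 997 and 1018 CPM of EIF4A2. Member estimates that contrast siLARP1 with siControl, and the LARP1 and EEF1A1 input estimates, are given with and without it. Medians, counts over all transcripts and the other TOP references in that contrast are given with it only. The siControl pulldown tests came from a fit that also held it, and were not repeated without it.

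The start of the mRNA is shown first, because it is where a TOP motif would lie. RefSeq transcription starts (GRCh38.p14) were read for 8 of the 9 mRNAs. EIF4EBP1 was left out of this step, so nothing is said here about how its mRNA begins. Each line gives 10 bases before the annotated start and 20 bases from it, 5′ to 3′, and capitals mark an unbroken run of C and T that begins with a C at the first base of the mRNA. The members shown are those of the 8 with any such run, followed by 4 TOP reference mRNAs and by PDCD4, which has none.
EIF4B (chr12:53006446-53006475, plus strand): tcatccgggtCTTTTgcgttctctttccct
EIF4H (chr7:74174346-74174375, plus strand): ctcgctcaccCTggttcctctcggagcgga
EIF4E2, the second start (chr2:232551057-232551086, plus strand): gggtggggacCTCggcggtttgggtgtttc
EEF2 (chr19:3985444-3985473, minus strand): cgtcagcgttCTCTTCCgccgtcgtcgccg
EEF1A1 (chr6:73521013-73521042, minus strand): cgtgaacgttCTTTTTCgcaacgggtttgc
RPS6 (chr9:19380217-19380246, minus strand): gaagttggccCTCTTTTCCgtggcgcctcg
RPLP0 (chr12:120201092-120201121, minus strand): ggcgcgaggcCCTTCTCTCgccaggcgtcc
PDCD4 (chr10:110871918-110871947, plus strand): gagaagggccagagactctccgaggcggcg

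EIF4B was the only one of the 8 whose annotated start opened with a C and at least 4 further pyrimidines, a run of 5. EIF4H had a run of 2 and the second start of EIF4E2 a run of 3. The annotated starts of EIF4G1, EIF4G2, EIF4E, PDCD4 and EIF4EBP2 did not begin with a C. Among the TOP references the runs were 7 in EEF2 and EEF1A1 and 9 in RPS6 and RPLP0, while RPL3 had 4. Of 35116 annotated starts, 1429 (4.07%) met the same rule as EIF4B, read on the strand of the gene. The first listed starts of EIF4G2 and EIF4E2, not shown above, opened with an A. A C and at least 4 further pyrimidines followed directly, so for these the rule turned on a single annotated base. An annotated start is not a measured cap site, so the runs describe the annotation only.

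In untreated naive cells the 9 mRNAs spanned a wide range of levels. Per 1000 codons of the counted region, EIF4B was the highest in RNA at 1903 and 1863 CPM in the 2 libraries, followed by EIF4H at 909 and 942. EIF4EBP2 was the lowest at 67.2 and 36.9. The order in footprints was different. EIF4H led at 1274 and 1160.1 CPM per 1000 codons, EIF4E had 714 and 738 and PDCD4 638 and 589, while EIF4B had 429 and 445. EIF4EBP1 (522 and 426) spanned the values of EIF4G2 (483 and 478), EIF4B lay below EIF4G2 without overlap, and EIF4G1 (387 and 405.9) lay just below EIF4B. EIF4E2 (161 and 199) and EIF4EBP2 (129 and 113) were the lowest.

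The ratio of footprint to RNA CPM compares an mRNA's share of ribosomes with its share of RNA. In naive cells it was lowest for EIF4B, at 0.232 (0.225 to 0.239) over the pairings of single libraries, and its highest mean was that of PDCD4, at 3.03 (2.86 to 3.21), which overlapped with EIF4EBP2, at 2.33 (1.68 to 3.50). EIF4G2 stood at 0.671 (0.665 to 0.678), EIF4E2 at 0.823 (0.706 to 0.949) and EIF4EBP1 at 0.901 (0.806 to 0.997). EIF4G1 stood at 1.20 (1.17 to 1.23), EIF4H at 1.32 (1.23 to 1.40) and EIF4E at 1.69 (1.62 to 1.77). The assays used different library preparations, so the ratio ranks mRNAs and gives no absolute rate. EIF4EBP2 rests on the fewest counts of the 9, 83 to 162 per RNA-seq library and 12 to 91 per profiling library.

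EIF4A1 KO cells held more RNA of both scaffolds and less RNA of 6 other members. In RNA-seq, 2 of the 9 were called higher and 6 lower in EIF4A1 KO than in naive cells, where 36.5% (18.1% higher and 18.4% lower) of all transcripts tested were called. The members' median log2 difference was -0.19, against -0.0025 over all transcripts. EIF4G1 RNA stood at 525.3 and 524 CPM in naive and 797 and 804 in EIF4A1 KO cells, a log2 difference of 0.60 (SE 0.03, edgeR adjusted p 8.31e-17). EIF4G2, a translation factor that lacks the eIF4E-binding part of EIF4G1, stood at 646 and 640.3 and 957 and 955 CPM, a difference of 0.56 (SE 0.029, edgeR adjusted p 1.98e-16). For both scaffolds the genotypes were far apart compared with their replicates. EIF4EBP1 RNA fell the most, from 57.1 and 57.7 CPM in naive to 33.1 and 32.3 in EIF4A1 KO cells, a difference of -0.82 (SE 0.062, edgeR adjusted p 1.59e-12). PDCD4 RNA fell from 94.7 and 91.5 to 74.5 and 70.7 CPM (-0.37, SE 0.05, edgeR adjusted p 3.36e-07), and EIF4B from 1146 and 1121 to 962 and 962 CPM (-0.25, SE 0.028, edgeR adjusted p 1.01e-08). The called falls of EIF4H (-0.14, SE 0.039), EIF4E (-0.20, SE 0.05) and EIF4E2 (-0.19, SE 0.064) were smaller. Leaving out EIF4A1 KO replicate 1 ended the calls of EIF4H (-0.097) and EIF4E (-0.17), and leaving out naive replicate 1 (-0.13) or EIF4A1 KO replicate 2 (-0.11) ended that of EIF4E2. EIF4EBP2, at 7.45 and 4.09 CPM in naive cells, was not called: its difference was 0.10 (95% interval -0.27 to 0.48), and it changed with single libraries, to 0.61, past the threshold, without naive replicate 1 and -0.26 without naive replicate 2.

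Footprints of the scaffolds rose and those of EIF4EBP1 fell in EIF4A1 KO cells in DMSO. The called falls of PDCD4 and EIF4EBP2 depended on single libraries. Of the 9 members 2 were called higher and 3 lower, where 22.7% (10.9% higher and 11.9% lower) of all transcripts were called. The members' median was -0.0029 and that of all transcripts -0.013. EIF4G1 footprints stood at 616 and 645 CPM in naive and 939 and 867 in EIF4A1 KO cells (0.52, SE 0.056, edgeR adjusted p 7.08e-14). EIF4G2 stood at 434 and 429 and 540.3 and 544 CPM (0.34, SE 0.06, edgeR adjusted p 3.19e-06). EIF4EBP1 fell from 56.9 and 46.5 to 25.2 and 24.3 CPM, a difference of -1.05 (SE 0.15, edgeR adjusted p 6.14e-09) on 59 to 294 counts per library. In all 3 the genotypes did not overlap. The same was true of PDCD4 and EIF4EBP2, and of EIF4B and EIF4H, which were not called. The share over all transcripts was not counted. PDCD4 fell from 293 and 271 to 221 and 257 CPM (-0.23, SE 0.07, edgeR adjusted p 0.00857). That call ended without naive replicate 1 (-0.18), without EIF4A1 KO replicate 1 (-0.13) and under DESeq2 (-0.22). EIF4EBP2 went from 14.3 and 12.5 to 4.51 and 12.3 CPM (-0.69, SE 0.26, edgeR adjusted p 0.0458). Its low value was the 12 counts of EIF4A1 KO replicate 1, without which the difference was -0.12; it was -0.60 and -0.79, also past no threshold, without naive replicate 1 or 2. Differences of EIF4B (0.14, 95% interval 0.0068 to 0.28), EIF4H (-0.13, 95% interval -0.26 to 0.0092), EIF4E (-0.0029, 95% interval -0.17 to 0.16) and EIF4E2 (0.087, 95% interval -0.18 to 0.35) were not called. Across transcripts with at least 50 counts on average, the footprint difference rose with the counted length (Spearman rho 0.303 over 10417 transcripts, which share the same libraries), and EIF4G1 and EIF4G2 are the longest members while EIF4EBP1 and EIF4EBP2 are the shortest; the part of length in these differences was not tested.

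Translation efficiency, the footprint difference beyond the RNA difference, was called for 2 members. The share of all transcripts called was 9.47% (3.73% higher and 5.74% lower), and the members' median was -0.00041 against -0.038 over all transcripts. EIF4B rose by 0.38 (SE 0.07, edgeR adjusted p 2.83e-05): its RNA was lower and its footprints were not, and the ratio of footprint to RNA CPM went from 0.232 (0.225 to 0.239) in naive to 0.300 (0.288 to 0.313) in EIF4A1 KO cells. EIF4G2 fell by 0.23 on the log2 scale (SE 0.063, edgeR adjusted p 0.00685), since its footprints rose less than its RNA, and its ratio went from 0.671 (0.665 to 0.678) to 0.567 (0.565 to 0.570). Without the EIF4A1 KO RNA-seq replicate 1 that call ended at -0.23. EIF4G1 (-0.084, 95% interval -0.21 to 0.038) and EIF4EBP1 (-0.24, 95% interval -0.56 to 0.093), whose RNA and footprints moved the same way, were not called. Nor were EIF4H (-0.00041, 95% interval -0.15 to 0.15), EIF4E (0.18, 95% interval -0.004 to 0.37), EIF4E2 (0.26, 95% interval -0.028 to 0.56) and PDCD4 (0.13, 95% interval -0.044 to 0.30). EIF4EBP2 had a difference of -0.80 (95% interval -1.46 to -0.14) that was not called, but passed without EIF4A1 KO DMSO replicate 2 (-1.72) or without naive RNA-seq replicate 1 (-1.30).

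**Figure D1:**
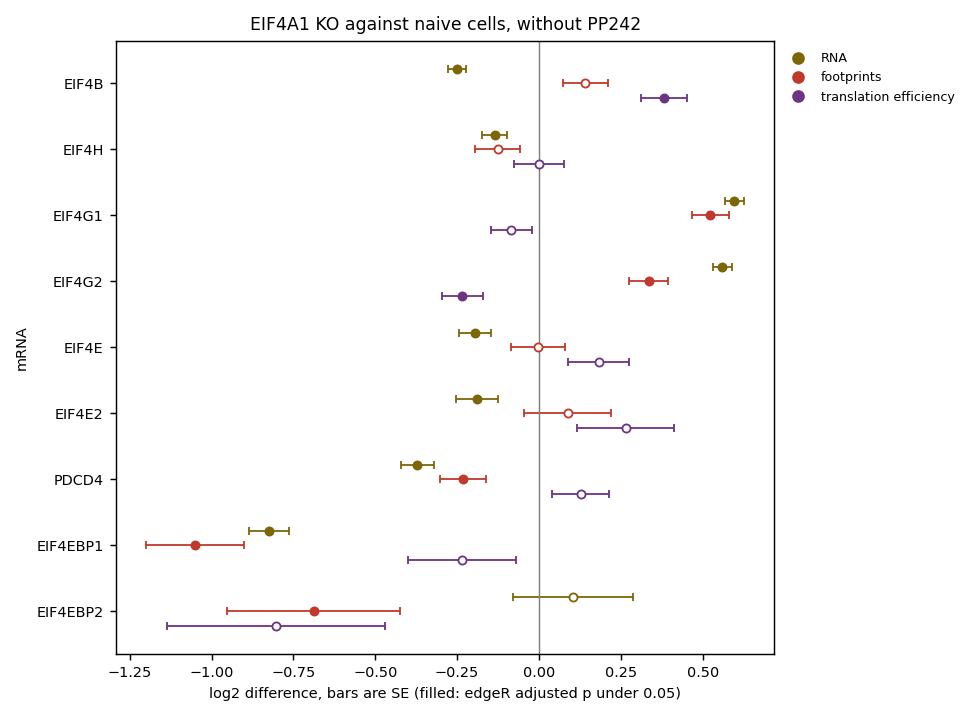
Log2 difference between EIF4A1 KO and naive cells without PP242 for each member mRNA (rows), in RNA, in footprints and in translation efficiency. Points are edgeR estimates, bars are SE, and filled points passed an adjusted p under 0.05; EIF4G1 and EIF4G2 lie to the right in RNA and footprints, EIF4EBP1 to the left, and EIF4B is the filled translation efficiency point at 0.38.

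In EIF4A2 KO cells, 7 of the 9 members' footprints were not called against naive cells. Called differences were 2 of 9, both higher, where 8.05% (3.73% higher and 4.32% lower) of all transcripts were called; the members' median was -0.026 and that of all transcripts 0.00054. EIF4EBP1 stood at 87.6 and 76.6 CPM in EIF4A2 KO against 56.9 and 46.5 in naive cells (0.66, SE 0.10, edgeR adjusted p 3.1e-07), and PDCD4 at 331 and 352 against 293 and 271 (0.27, SE 0.063, edgeR adjusted p 0.00156). Neither pair of groups overlapped, but neither did those of EIF4G1, EIF4G2 and EIF4EBP2, which were not called. EIF4EBP1 and PDCD4 had both been lower than naive in EIF4A1 KO cells. These comparisons share the naive libraries. The PDCD4 call ended without naive replicate 2 (0.21) or EIF4A2 KO replicate 2 (0.22). EIF4G1 (-0.081, 95% interval -0.19 to 0.028) and EIF4G2 (-0.10, 95% interval -0.21 to 0.014) had intervals that exclude the rises seen in EIF4A1 KO cells. EIF4B (-0.026, 95% interval -0.15 to 0.10), EIF4H (-0.075, 95% interval -0.20 to 0.049), EIF4E (-0.094, 95% interval -0.24 to 0.057) and EIF4E2 (0.0042, 95% interval -0.23 to 0.24) were not called either. EIF4EBP2 stood at 17.4 and 18.0 CPM against 14.3 and 12.5 in naive cells, and its difference of 0.39 (95% interval 0.023 to 0.76, edgeR adjusted p 0.213) did not pass after adjustment.

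**Figure D2:**
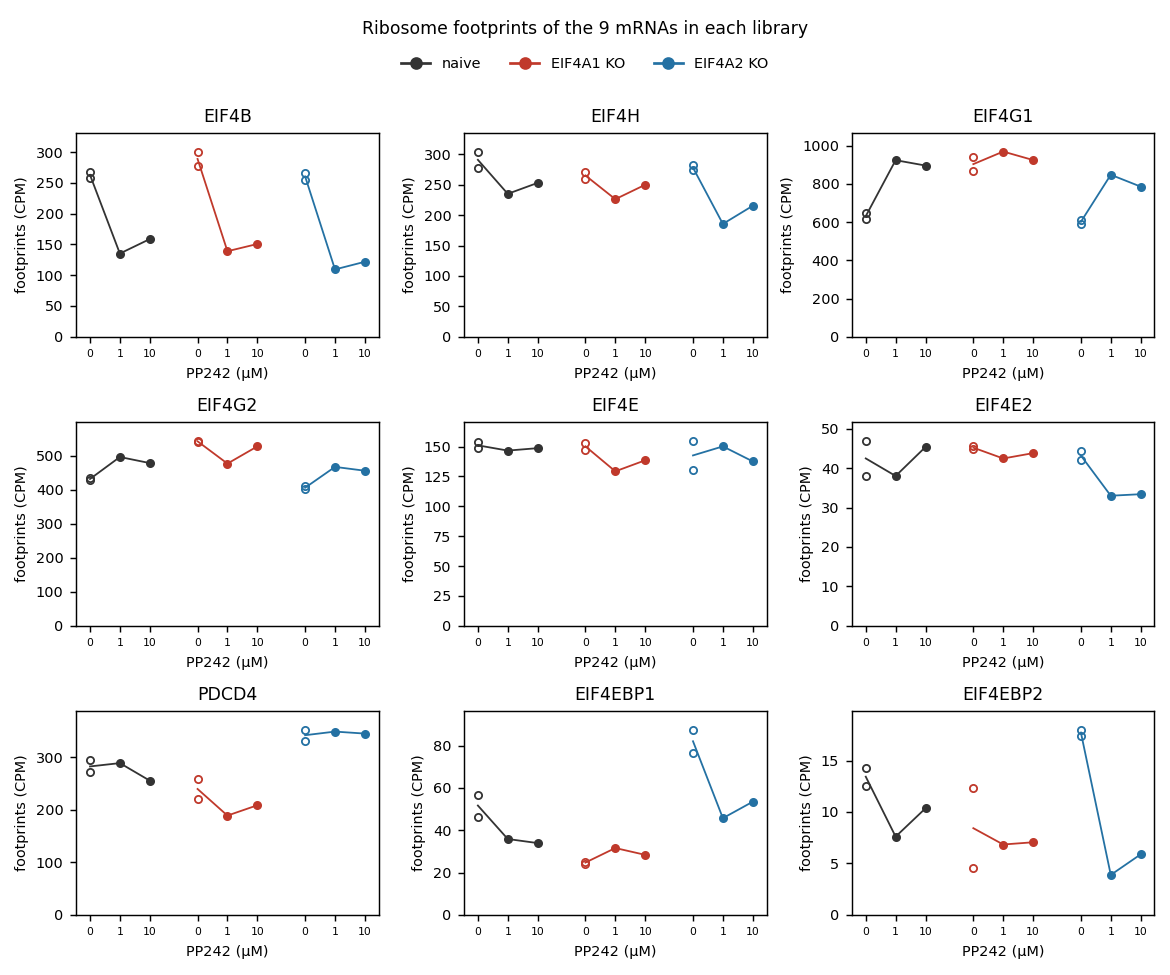
Footprint CPM (vertical axis, linear, from 0) of each member in all 12 ribosome profiling libraries, by genotype, with 2 DMSO libraries and 1 library each at 1 µM and 10 µM PP242. Points are single libraries and lines join the means; EIF4B is lower in every PP242 library than in every DMSO library, and EIF4G1 in EIF4A1 KO DMSO is as high as in naive cells with PP242.

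PP242 lowered EIF4B footprints in all 3 genotypes. In naive cells EIF4B went from a DMSO level of 258 and 268 CPM to 135 at 1 µM and 159 at 10 µM. EIF4A1 KO cells went from 301 and 277 to 139 at 1 µM and 151 at 10 µM, and EIF4A2 KO cells from 255 and 266 to 109 at 1 µM and 122 at 10 µM. Every PP242 library lay below every DMSO library of its genotype. The same held for EIF4H, also in EIF4A1 KO cells, where it was not called. With both doses pooled as PP242, the log2 differences were -0.85 (SE 0.078, edgeR adjusted p 2.2e-14) in naive, -0.998 (SE 0.078, edgeR adjusted p 3.17e-17) in EIF4A1 KO and -1.16 (SE 0.077, edgeR adjusted p 5.1e-21) in EIF4A2 KO cells, which left 55.5%, 50.1% and 44.7% of the DMSO level. The lower dose gave the lower level in each genotype, without replicates of a dose. EIF4H, the other cofactor, went from 304 and 277 CPM to 235 at 1 µM and 253 at 10 µM in naive cells (-0.25, SE 0.072, edgeR adjusted p 0.014) and from 274 and 282 to 185 at 1 µM and 215 at 10 µM in EIF4A2 KO cells (-0.46, SE 0.072, edgeR adjusted p 8.85e-07). Its difference in EIF4A1 KO cells, -0.16 (95% interval -0.31 to -0.0064), was not called, and the naive call ended without DMSO replicate 1 (-0.19) or the 1 µM library (-0.20).

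EIF4G1 footprints rose with PP242 in naive and EIF4A2 KO cells and were not called in EIF4A1 KO cells. They went from 616 and 645 CPM to 923 at 1 µM and 895 at 10 µM in naive cells (0.53, SE 0.061, edgeR adjusted p 1.62e-10) and from 611 and 591 to 847 at 1 µM and 785 at 10 µM in EIF4A2 KO cells (0.45, SE 0.061, edgeR adjusted p 2.45e-08). The EIF4A1 KO libraries held 939 and 867 CPM in DMSO and 969 at 1 µM and 924 at 10 µM, a difference of 0.062 (95% interval -0.061 to 0.18). The untreated EIF4A1 KO level thus lay near the PP242-treated naive level. EIF4G2 moved less: from 434 and 429 CPM to 496 at 1 µM and 478 at 10 µM in naive cells (0.18, SE 0.063, edgeR adjusted p 0.0573, not called, but called at 0.19 with all distinct transcripts) and from 411 and 401 to 467 at 1 µM and 456 at 10 µM in EIF4A2 KO cells (0.19, SE 0.062, edgeR adjusted p 0.0288). The latter call ended when any of its 4 libraries was left out, at 0.21 and 0.17 without DMSO replicate 1 and 2, 0.17 without the 1 µM library and 0.22 without the 10 µM library. In EIF4A1 KO cells EIF4G2 stood at 540.3 and 544 CPM in DMSO and 477 at 1 µM and 527 at 10 µM (-0.11, 95% interval -0.24 to 0.013).

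EIF4E was called in no genotype, and EIF4E2 in 1. EIF4E, the cap-binding subunit of eIF4F, stood between 129 and 155 CPM in all 12 libraries, and its differences were -0.031 (95% interval -0.19 to 0.13) in naive, -0.17 (95% interval -0.34 to 0.0051) in EIF4A1 KO and 0.018 (95% interval -0.14 to 0.18) in EIF4A2 KO cells, none called. EIF4E2, a cap-binding relative that acts in repression, was called only in EIF4A2 KO cells, where it went from 44.4 and 42.0 CPM to 33.0 at 1 µM and 33.4 at 10 µM (-0.37, SE 0.13, edgeR adjusted p 0.0395). That call ended under DESeq2 (-0.37), without a filter on low counts (-0.38) and without any of its 4 libraries (DMSO replicate 1 -0.33, DMSO replicate 2 -0.42, 1 µM -0.37, 10 µM -0.37). Its differences in naive (-0.05, 95% interval -0.30 to 0.20) and EIF4A1 KO cells (-0.07, 95% interval -0.34 to 0.20) were not called, and no difference of response in EIF4E2 was called between genotypes.

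Among the repressors EIF4EBP1 fell with PP242 in naive and EIF4A2 KO cells, and EIF4EBP2 in EIF4A2 KO cells. EIF4EBP1 went from a naive DMSO level of 56.9 and 46.5 CPM to 35.9 at 1 µM and 33.9 at 10 µM (-0.55, SE 0.13, edgeR adjusted p 0.0018), and from 87.6 and 76.6 to 45.7 at 1 µM and 53.5 at 10 µM in EIF4A2 KO cells (-0.71, SE 0.11, edgeR adjusted p 4.2e-07). The EIF4A1 KO libraries held 25.2 and 24.3 CPM of it in DMSO and 31.6 at 1 µM and 28.4 at 10 µM (0.26, 95% interval -0.074 to 0.59). All 4 EIF4A1 KO libraries lay below all 4 naive libraries. The naive call ended without DMSO replicate 1 (-0.40). EIF4EBP2 fell from 17.4 and 18.0 CPM to 3.88 at 1 µM and 5.88 at 10 µM in EIF4A2 KO cells (-1.83, SE 0.25, edgeR adjusted p 1.63e-08), on 18 to 91 counts per library. In naive cells it went from 14.3 and 12.5 to 7.60 at 1 µM and 10.4 at 10 µM (-0.61, 95% interval -1.10 to -0.12), and in EIF4A1 KO cells from 4.51 and 12.3 to 6.84 at 1 µM and 7.06 at 10 µM (-0.25, 95% interval -0.87 to 0.36), neither called. PDCD4, the eIF4A blocker, was called in EIF4A1 KO cells, from 221 and 257 CPM to 189 at 1 µM and 208 at 10 µM (-0.27, SE 0.078, edgeR adjusted p 0.024), a call that ended without DMSO replicate 2 (-0.16) or the 1 µM library (-0.21). Its naive (-0.043, 95% interval -0.19 to 0.10) and EIF4A2 KO (0.029, 95% interval -0.11 to 0.17) differences were not called.

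With PP242, 4 of the 9 members were called in naive cells (1 higher, 3 lower), 2 in EIF4A1 KO cells (both lower) and 7 in EIF4A2 KO cells (2 higher, 5 lower). Of all transcripts 9.38% (3.67% higher and 5.71% lower), 6.02% (2.32% higher and 3.7% lower) and 11.7% (4.59% higher and 7.11% lower) were called in the same order. The members' medians were -0.05, -0.16 and -0.37, against 0.0045, 0.0091 and 0.014 over all transcripts. Spearman rho of the PP242 difference with counted length was 0.231 (naive), -0.037 (EIF4A1 KO) and 0.339 (EIF4A2 KO) over 10582 transcripts. EIF4G1 and EIF4G2 are the longest members and EIF4EBP1 and EIF4EBP2 the shortest, and the part of length was not tested. With 1 library per dose, the doses served as replicates of PP242, a coding chosen with earlier results of these data known. With a dose score of 0, 1 and 2 fitted as a slope, 0 members were called in naive and EIF4A1 KO cells and 2, EIF4B and EIF4EBP2, in EIF4A2 KO cells.

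**Figure D3:**
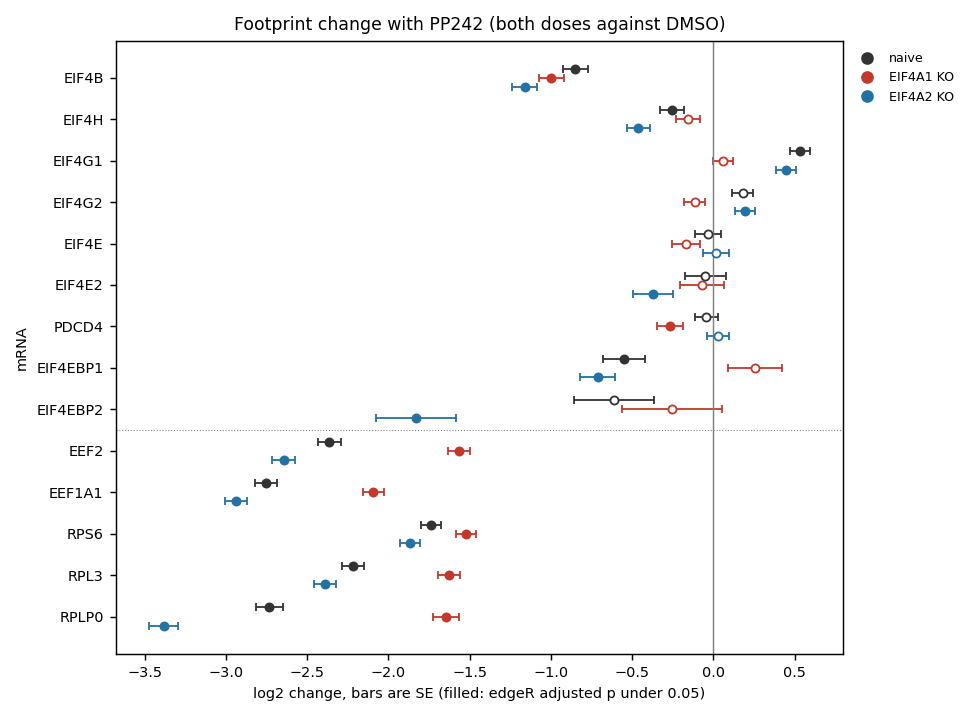
Log2 difference of footprints between PP242 (1 µM and 10 µM together) and DMSO for each member mRNA and, under the line, the 5 TOP references (rows) in naive, EIF4A1 KO and EIF4A2 KO cells. Points are edgeR estimates, bars are SE, and filled points passed an adjusted p under 0.05; EIF4B lies between -1.16 and -0.85 in all genotypes, while EIF4G1 in EIF4A1 KO cells lies at 0.062, against 0.53 in naive cells.

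The difference of the PP242 response between genotypes was tested directly. Between EIF4A1 KO and naive cells 3 members were called, where 6.06% (3.61% higher and 2.45% lower) of all transcripts were called. The response in EIF4A1 KO minus that in naive cells was -0.47 (SE 0.087, edgeR adjusted p 0.000112) for EIF4G1, -0.29 (SE 0.089, edgeR adjusted p 0.0326) for EIF4G2 and, for EIF4EBP1, 0.81 (SE 0.21, edgeR adjusted p 0.00885). Between EIF4A1 KO and EIF4A2 KO cells 4 were called, with 6.22% (3.7% higher and 2.52% lower) of all transcripts: EIF4G1 (-0.39, SE 0.087, edgeR adjusted p 0.00173), EIF4G2 (-0.31, SE 0.089, edgeR adjusted p 0.0227), EIF4EBP1 (0.97, SE 0.20, edgeR adjusted p 0.000454) and EIF4EBP2 (1.58, SE 0.39, edgeR adjusted p 0.0063). Between EIF4A2 KO and naive cells 0 members were called by edgeR, where 0.0683% (0.00488% higher and 0.0634% lower) (14 transcripts) were called and 1313 had an unadjusted p under 0.05. In that comparison EIF4EBP2 differed by -1.22 (95% interval -1.94 to -0.50, edgeR adjusted p 0.356) and EIF4B by -0.31 (95% interval -0.53 to -0.092, edgeR adjusted p 0.54). EIF4H differed by -0.21 (95% interval -0.41 to -0.0041, edgeR adjusted p 0.769). None of them passed after adjustment although their intervals lie below 0. The other members' estimates lay between -0.32 (EIF4E2) and 0.072 (PDCD4). Members not called between EIF4A1 KO and naive cells were EIF4H (0.097, 95% interval -0.11 to 0.31), EIF4E (-0.14, 95% interval -0.37 to 0.10), EIF4E2 (-0.02, 95% interval -0.39 to 0.35), PDCD4 (-0.22, 95% interval -0.44 to -0.013) and EIF4EBP2 (0.36, 95% interval -0.43 to 1.14), beside EIF4B. Between EIF4A1 KO and EIF4A2 KO cells EIF4H (0.30, 95% interval 0.097 to 0.51), EIF4E (-0.19, 95% interval -0.42 to 0.049), EIF4E2 (0.30, 95% interval -0.065 to 0.66) and PDCD4 (-0.30, 95% interval -0.50 to -0.09) were not called, beside EIF4B. The members' medians in these 3 differences were -0.14, 0.16 and -0.16, against 0.017, 0.019 and -0.0018 over all transcripts. The differences share libraries: those against EIF4A1 KO cells use the same 4 EIF4A1 KO libraries. They also use the DMSO libraries that gave the genotype differences in DMSO, so the results are not independent of those.

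EIF4G1 kept its difference from naive cells whichever library was left out. Its difference from EIF4A2 KO cells ended at -0.33 without EIF4A1 KO DMSO replicate 1. The EIF4EBP1 difference from naive cells ended without naive DMSO replicate 1 (0.66) and without EIF4A1 KO DMSO replicate 1 (0.84) or 2 (0.78). The EIF4G2 differences lay between -0.23 and -0.36 against naive and between -0.25 and -0.37 against EIF4A2 KO cells when single libraries were left out, and most of these values were not called. The EIF4EBP2 difference was 1.003 without EIF4A1 KO DMSO replicate 1 and 1.33 without the EIF4A2 KO 1 µM library, neither past the threshold. Values not called in all libraries passed in a few such fits: EIF4H against EIF4A2 KO cells (0.30) was 0.41 without the EIF4A2 KO 10 µM library. PDCD4 (-0.30) was -0.40 without EIF4A1 KO DMSO replicate 1 and -0.36 without the EIF4A1 KO 10 µM library. No member was called in any of these differences with the dose score. Across 10582 transcripts the response difference fell with the counted length, with a Spearman rho of -0.224 against naive and -0.323 against EIF4A2 KO cells; of the longest members, EIF4G1 and EIF4G2 were called lower in both differences, and of the shortest EIF4EBP1 was called higher in both and EIF4EBP2 against EIF4A2 KO cells, and the part of length was not tested.

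EIF4B was set beside 5 TOP references and 2 non-TOP references. The TOP references, listed mRNAs of elongation factors and ribosomal proteins, were called lower with PP242 in every genotype. Their log2 differences ran from -2.75 (EEF1A1) to -1.74 (RPS6) in naive cells, from -2.09 (EEF1A1) to -1.52 (RPS6) in EIF4A1 KO cells and from -3.38 (RPLP0) to -1.87 (RPS6) in EIF4A2 KO cells. The EIF4B falls were smaller than each of these in the same genotype. Against naive cells, 4 of 5 references had a smaller fall in EIF4A1 KO cells: EEF2 by 0.80 (SE 0.095, edgeR adjusted p 5.82e-09), EEF1A1 by 0.66 (SE 0.09, edgeR adjusted p 2.34e-07), RPL3 by 0.59 (SE 0.094, edgeR adjusted p 6.54e-06) and RPLP0 by 1.09 (SE 0.12, edgeR adjusted p 1.13e-10). RPS6, at 0.22 (95% interval 0.042 to 0.39, edgeR adjusted p 0.141), was not called. EIF4B differed by -0.15 (95% interval -0.37 to 0.072, edgeR adjusted p 0.515), and its interval excludes the differences of those 4. Against EIF4A2 KO cells all 5 references had a smaller fall in EIF4A1 KO cells, from 0.34 (RPS6) to 1.74 (RPLP0), while EIF4B differed by 0.16 (95% interval -0.055 to 0.38, edgeR adjusted p 0.445). The non-TOP references moved too: GAPDH, a glycolytic enzyme, was called lower with PP242 in the 3 genotypes, by log2 values of -1.42 (naive), -0.77 (EIF4A1 KO) and -1.71 (EIF4A2 KO); ACTB, a cytoskeletal actin, differed in the same order by -0.42, 0.0055 (not called) and -0.45. Both had a called difference of response in EIF4A1 KO cells, of 0.66 (SE 0.12, edgeR adjusted p 4.51e-05) for GAPDH and 0.42 (SE 0.084, edgeR adjusted p 0.00041) for ACTB against naive cells, and of 0.95 and 0.45 against EIF4A2 KO cells. The GAPDH fall in naive cells was larger than that of EIF4B. Falls with PP242 and smaller falls in EIF4A1 KO cells thus also occurred in mRNAs not listed as TOP. GAPDH and ACTB were named after their values were seen, and no fit tested EIF4B against the references.

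Beside the members, 27 genes were listed: other eIF4F subunits, other 4E-binding proteins, cap and poly(A) binding proteins, mTORC1 signalling, the helicase DDX3X and the 7 references. Of the 25 that passed the count filter in ribosome profiling, 5 were called higher and 12 lower with PP242 in naive cells (9.38% of all transcripts called). The counts were 0 and 10 for EIF4A1 KO (6.02%), and 3 and 11 for EIF4A2 KO (11.7%). The references made up 7, 6 and 7 of those called lower. The helicase EIF4A1 itself fell in naive cells by 0.42 on the log2 scale (SE 0.058, edgeR adjusted p 4.94e-08), from 2598 and 2674 CPM to 1995 at 1 µM and 1932 at 10 µM. EIF4A2, whose annotated start opens with a C and 5 further pyrimidines, fell by 0.85 (SE 0.10, edgeR adjusted p 7.81e-10), against 0.85 for EIF4B. LARP1 rose by 0.30 (SE 0.075, edgeR adjusted p 0.00425) in naive cells. Elsewhere the list gave 10 called higher and 5 lower of 26 in EIF4A1 KO RNA (36.5% of all transcripts), 3 and 10 of 25 in its DMSO footprints (22.7%), and 3 and 8 in translation efficiency (9.47%). The SBP-eIF4A1 pulldown gave 10 and 14 of 26 (55.4%), and SBP-eIF4A2 6 and 13 (59.8%).

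In the pulldowns, PDCD4 mRNA was depleted, and EIF4EBP1 and EIF4EBP2 mRNAs were enriched, with both helicases. With SBP-eIF4A1, 3 of 9 members were called higher and 3 lower in pulldown than input, and with SBP-eIF4A2 4 higher and 5 lower, where 55.4% (28.7% higher and 26.7% lower) and 59.8% (29.8% higher and 30.0% lower) of all transcripts were called, so a call alone was common. The members' medians were -0.087 and -0.21, against 0.036 and 0.025 over all transcripts. PDCD4 stood at 133 and 142 CPM in SBP-eIF4A1 input and 61.0 and 63.5 in pulldown (-1.13, SE 0.074, edgeR adjusted p 8.79e-10), and at 122 and 124 and 49.5 and 42.9 with SBP-eIF4A2 (-1.38, SE 0.073, edgeR adjusted p 5.48e-11). It was the most depleted member with either protein. EIF4EBP1 went from 174 and 187 to 366 and 399 CPM with SBP-eIF4A1 (1.10, SE 0.069, edgeR adjusted p 5.41e-10) and from 114 and 125 to 147 and 164 with SBP-eIF4A2 (0.41, SE 0.07, edgeR adjusted p 7.7e-05). EIF4EBP2 went from 11.5 and 10.2 to 24.9 and 31.8 (1.40, SE 0.13, edgeR adjusted p 9.59e-08) and from 13.4 and 13.4 to 26.0 and 24.1 (0.93, SE 0.12, edgeR adjusted p 4.14e-06). None of these inputs overlapped with its pulldowns. With SBP-eIF4A1 the same was true of EIF4H and EIF4G1, which were not called. None of the other 3 listed 4E-binding mRNAs was called higher. EIF4ENIF1 and GIGYF2 were called lower with both proteins (-0.47 and -1.27 with SBP-eIF4A1, -0.46 and -0.94 with SBP-eIF4A2). EIF4EBP3, on 1 to 19 counts per library, was not called with either. So few counts cannot show whether it was enriched. These other 4E-binding mRNAs were named after their values were seen. EIF4G2 was slightly higher with both, at 0.16 (SE 0.051) and 0.16 (SE 0.05), and EIF4E lower, at -0.18 (SE 0.067) and -0.47 (SE 0.066). With SBP-eIF4A1 the EIF4E call ended without any 1 of the 4 libraries (-0.22 to -0.16), and the EIF4G2 call without either input (0.16 and 0.14) or pulldown replicate 1 (0.12). With SBP-eIF4A2 the EIF4G2 call ended without input replicate 2 (0.10). EIF4E2 was -0.00046 (95% interval -0.17 to 0.17) with SBP-eIF4A1 and -0.21 (SE 0.079) with SBP-eIF4A2, a call that ended without either input (-0.22 and -0.24) or pulldown replicate 1 (-0.17). Enrichment fell with counted length across 17847 transcripts (Spearman rho -0.309 with SBP-eIF4A1 and -0.159 with SBP-eIF4A2). EIF4EBP1 and EIF4EBP2 are the shortest members. EIF4ENIF1 (976) and GIGYF2 (1290) have longer counted regions, and EIF4EBP3 (91) a shorter one. The part of length was not tested. No pulldown from cells without the tag was analysed here, so binding to the beads was not subtracted.

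Enrichment of EIF4H, EIF4G1, EIF4E and EIF4EBP1 differed between the 2 helicases. EIF4G1 was -0.097 (95% interval -0.20 to 0.0099) with SBP-eIF4A1 (491 and 496 CPM in input, 460.3 and 452 in pulldown) and enriched with SBP-eIF4A2, from 689.9 and 657 to 954 and 937 CPM (0.52, SE 0.05, edgeR adjusted p 8.85e-08). The difference of enrichment, SBP-eIF4A1 minus SBP-eIF4A2, was -0.62 (SE 0.071, edgeR adjusted p 1.49e-05). With the median-ratio (RLE) size factors of DESeq2 the SBP-eIF4A1 value of EIF4G1 was called lower, at -0.13. EIF4H went from 159 and 158 to 137 and 158 CPM with SBP-eIF4A1 (-0.087, 95% interval -0.24 to 0.063) and from 155 and 158 to 96.2 and 108 with SBP-eIF4A2 (-0.58, SE 0.07, edgeR adjusted p 1.84e-06), a difference of 0.49 (SE 0.10, edgeR adjusted p 0.0025). EIF4EBP1 was more enriched with SBP-eIF4A1, by 0.69 (SE 0.098, edgeR adjusted p 0.000131). EIF4E differed by 0.29 (SE 0.093, edgeR adjusted p 0.0424), a call that ended under DESeq2, under RLE size factors, with the replicate block and in 6 of the 8 fits without a single library, over which it ran from 0.24 to 0.35. These 4 were the members called, where 15.7% (10.4% higher and 5.3% lower) of all transcripts were called. PDCD4 (0.25, 95% interval 0.03 to 0.47) and EIF4EBP2 (0.46, 95% interval 0.082 to 0.85) were not called, but PDCD4 passed without SBP-eIF4A2 pulldown replicate 1 (0.36), and EIF4EBP2 without that library (0.53), without SBP-eIF4A1 pulldown replicate 1 (0.63) or without SBP-eIF4A2 pulldown replicate 2 (0.41). EIF4B was depleted with both, at -0.30 (SE 0.055, edgeR adjusted p 0.000168) and -0.24 (SE 0.055, edgeR adjusted p 0.00112), and its difference was -0.059 (95% interval -0.22 to 0.10). EIF4G2 (-0.0042, 95% interval -0.15 to 0.15) and EIF4E2 (0.21, 95% interval -0.034 to 0.45) were not called. The enrichment difference fell with counted length across 17847 transcripts (Spearman rho -0.313). EIF4G1 is the longest member and EIF4EBP1 the shortest, and the part of length was not tested. In the SBP-eIF4A1 pulldown after siControl, given next, EIF4H, EIF4G1, EIF4E and EIF4EBP1 lay on the other side of their SBP-eIF4A2 values. That contrast was not tested.

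**Figure D4:**
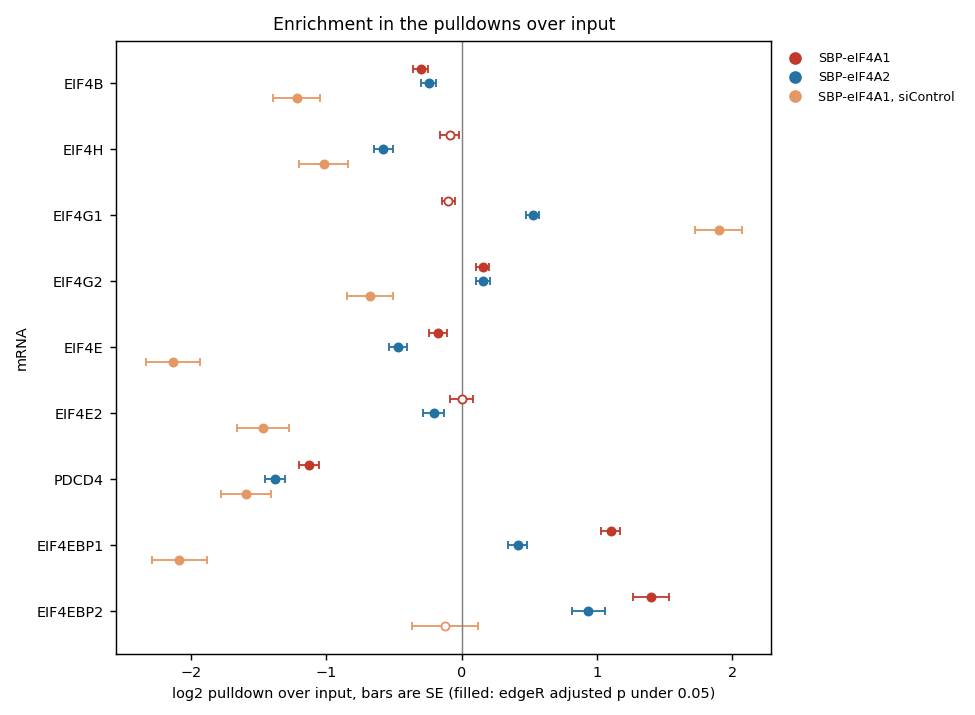
Log2 ratio of pulldown to input for each member mRNA (rows) with SBP-eIF4A1, SBP-eIF4A2 and SBP-eIF4A1 after siControl. Points are edgeR estimates, bars are SE, and filled points passed an adjusted p under 0.05; PDCD4 lies below 0 in all 3, whereas EIF4EBP1 lies above 0 without siRNA and at -2.09 after siControl.

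The SBP-eIF4A1 pulldown after siControl gave other values than the one without siRNA. There 1 member was called higher and 7 lower, with 49.2% (25.3% higher and 23.9% lower) of all transcripts called; the members' median was -1.22, against 0.085 over all transcripts. EIF4G1 went from 574 and 558 CPM in input to 2221 and 2019 in pulldown (1.90, SE 0.17, edgeR adjusted p 3.38e-11), and EIF4EBP1 from 145 and 151 to 39.9 and 30.2 (-2.09, SE 0.20, edgeR adjusted p 1.86e-10), where EIF4G1 had not been called and EIF4EBP1 had been enriched without siRNA. EIF4E fell from 149 and 160.2 to 35.9 and 34.9 CPM (-2.13, SE 0.20, edgeR adjusted p 6.84e-11). EIF4B, from 1609 and 1735 to 712 and 731 CPM (-1.22, SE 0.18, edgeR adjusted p 5.18e-07), and PDCD4, from 150.3 and 155 to 49.9 and 51.5 (-1.60, SE 0.18, edgeR adjusted p 7.28e-09), were lower in both experiments. EIF4H (-1.02, SE 0.18), EIF4E2 (-1.47, SE 0.19) and EIF4G2 (-0.68, SE 0.17) were also called lower, EIF4G2 not without siControl input replicate 2 (-0.58), and EIF4EBP2 was -0.12 (95% interval -0.61 to 0.37). The relation to counted length turned as well: Spearman rho was -0.309 without siRNA and 0.255 after siControl, over 17847 and 17105 transcripts. The experiments were fitted separately, so their difference was not tested here, nor was the part of length in it.

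After LARP1 knockdown 1 of the 9 members was called in the inputs. EIF4B stood at 1609 and 1735 CPM after siControl and 1018.8 and 775 after siLARP1, without overlap, a log2 difference of -0.89 (SE 0.17, edgeR adjusted p 0.0124). The uncalled EIF4G1 and EIF4EBP1 did not overlap either. Of all transcripts 0.394% (0.274% higher and 0.12% lower) (105) were called, and the members' median was -0.15 against 0.026. The lower EIF4B value came from the library that goes against its label. Without that library the difference was -0.72 and was not called, nor was it without siControl input replicate 2 (-0.87). With the replicate number as a block the estimate was -0.89 and the call ended, as did that of EEF1A1. In the assay without siRNA the SBP-eIF4A1 inputs held 1524 and 1546 CPM of EIF4B and the SBP-eIF4A2 inputs 1049 and 1107. This difference between inputs was not tested, and the tagged protein cannot be told apart from the cell line in it. siLARP1 input replicate 1, with 3091 CPM of EIF4A1 and 292 CPM of EIF4A2, both below the remaining SBP-eIF4A1 inputs when the library that goes against its label is left out, held 1018.8 CPM. LARP1 itself was -1.37 (SE 0.18, edgeR adjusted p 7.19e-05), and -1.25, still called, without that library. Of the TOP references EEF1A1 alone was called lower (-0.70, SE 0.15, edgeR adjusted p 0.0248), but not without the library that goes against its label (-0.71) or without any 1 of the other inputs (-0.79 and -0.68 without siControl input replicate 1 and 2, -0.71 without siLARP1 input replicate 1); EEF2 (-0.60, SE 0.17), RPS6 (-0.50, SE 0.16), RPL3 (-0.58, SE 0.17) and RPLP0 (-0.47, SE 0.16) were not called.

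The other 8 members were not called between siLARP1 and siControl inputs. EIF4G1 stood at 574 and 558 CPM after siControl and 827 and 797 after siLARP1 (0.53, 95% interval 0.19 to 0.87, edgeR adjusted p 0.133), and 0.54 without the library that goes against its label; DESeq2 called it at 0.50. EIF4EBP1 stood at 145 and 151 and 123 and 89.0 CPM (-0.47, 95% interval -0.87 to -0.08; -0.28 without it). The remaining differences, with the value without that library after each, were 0.15 and 0.19 for EIF4H, -0.40 and -0.38 for EIF4G2, and -0.15 and -0.43 for EIF4E. They were -0.46 and -0.38 for EIF4E2, 0.087 and 0.12 for PDCD4, and 0.55 and 0.75 for EIF4EBP2. With all libraries, the input difference rose with counted length across 17105 transcripts (Spearman rho 0.266). EIF4G1, the longest member, lay above 0 and EIF4EBP1, the shortest, below it. EIF4G2, also long, lay below 0 and EIF4EBP2, also short, above it. The part of length was not tested.

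**Figure D5:**
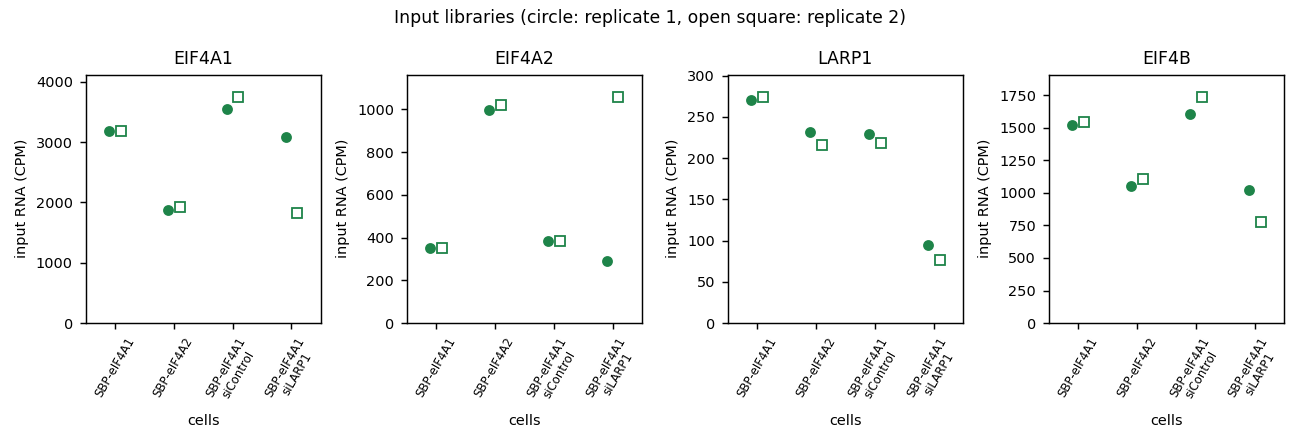
Input RNA level in CPM (vertical axis, linear, from 0) of EIF4A1, EIF4A2, LARP1 and EIF4B (1 panel each), in single input libraries of SBP-eIF4A1 and SBP-eIF4A2 cells without siRNA and of SBP-eIF4A1 cells after siControl and siLARP1. Circles are replicate 1 and open squares replicate 2; EIF4B lies at 1018.8 and 775 CPM after siLARP1, below both siControl inputs; inputs without siRNA were scaled in a separate fit.

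The change of SBP-eIF4A1 enrichment after siLARP1 rests on 1 pulldown library, assumed to vary like the other groups. None of the 9 members was called by edgeR, and 0.0% (0.0% higher and 0.0% lower) of all transcripts were called, with 838 at an unadjusted p under 0.05 and 0 called by DESeq2. EIF4B in that pulldown stood at 376 CPM, against 712 and 731 after siControl. Its enrichment differed by -0.051 (95% interval -0.61 to 0.51), or -0.22 without the input library that goes against its label; input and pulldown were both lower. EIF4G1 stood at 2236 CPM against 2221 and 2019 and differed in enrichment by -0.45 (95% interval -0.99 to 0.082), or -0.46 without that library. The other members' estimates lay between -0.43 (EIF4H) and 0.41 (EIF4EBP1), and between -0.47 (EIF4EBP2) and 0.22 (EIF4EBP1) without it.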

How the data were processed

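The authors deposited 1 file per library with whole-number read counts per Ensembl transcript, unscaled, and a length per transcript, also deposited by the authors, which equals the protein length in amino acids minus 9 for all members and is below 0 for 313 transcripts. Per the submitters' processing notes, CASAVA 1.8, STAR 2.7.0a and the build hg38 were used; the counting tool is not given in the sources used here. The region counted is not stated. Many transcripts held identical counts in all libraries, so a read can count in several transcripts; near-identical copies may not be separated, and levels of EEF1A1, ribosomal protein mRNAs and other genes with pseudogenes are uncertain.

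Of 227264 transcripts 94734 had a count, 77343 were distinct, and 35499 remained after 1 per locus was kept (neighbours within 10 distinct rows with a correlation of log2 CPM, pseudocount 0.5, of at least 0.9 were dropped; member and pathway transcripts were taken first). Tests used edgeR 4.0.16 in R 4.3.3: TMM, filterByExpr (count 10, total 15), glmQLFit and glmQLFTest, two-sided, 1 mean per group, Benjamini-Hochberg over all transcripts tested. SE is the log2 difference divided by the root of F. Fits held the 4 RNA-seq, 6 DMSO profiling, 12 profiling, 8 RNA-seq and DMSO profiling (translation efficiency as interaction), 8 pulldown and 7 siRNA libraries. Scripts were tested on simulated data. Alternatives were DESeq2 1.42.0, its size factors, no count filter, all distinct transcripts, each library left out, the replicate number as a block and a dose score; a crossed block in RNA-seq was added after seeing the data.

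Members, lists and the coding of PP242 were chosen with earlier results of these data known. All 9 members are reported in every comparison, by value or range. Of 27 other listed genes, counts are given, and values for EIF4A1, EIF4A2, LARP1, the references and 2 other 4E-binding mRNAs. For EIF4EBP3 only the read counts in the pulldowns and inputs without siRNA are given. Their transcript identifiers came from general knowledge; 26 of 27 met the length rule, checked against protein lengths from general knowledge because no protein table was used here. No 2 replicates held the same values within sampling noise.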

Additional observations from a re-analysis of the deposited data

Results flagged for a closer look

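These values stand apart since the contrast of genotypes, or of tagged proteins, was itself tested and passed an edgeR adjusted p under 0.05. The PP242 response in EIF4A1 KO cells differed from that in naive cells by -0.47 for EIF4G1, by -0.29 for EIF4G2 and by 0.81 for EIF4EBP1 on the log2 scale. From EIF4A2 KO cells it differed by -0.39 for EIF4G1, -0.31 for EIF4G2, 0.97 for EIF4EBP1 and 1.58 for EIF4EBP2. Each of these 7 calls ended when PP242 was coded as a dose score, and the differences share the EIF4A1 KO libraries. In DMSO, EIF4G1 and EIF4G2 were already higher and EIF4EBP1 lower in EIF4A1 KO than in naive cells. The response difference from naive cells subtracts this DMSO difference, taken from the same libraries. The DMSO difference is therefore not an independent observation beside it.

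Enrichment with SBP-eIF4A1 differed from that with SBP-eIF4A2 by 0.49 for EIF4H, -0.62 for EIF4G1, 0.29 for EIF4E and 0.69 for EIF4EBP1. The EIF4E call ended under DESeq2, under RLE size factors and in most fits that left out 1 library. SBP-eIF4A1 after siControl, fitted separately, gave -1.02 for EIF4H, 1.90 for EIF4G1, -2.13 for EIF4E and -2.09 for EIF4EBP1. SBP-eIF4A2 gave -0.58, 0.52, -0.47 and 0.41 in the same order. Set against SBP-eIF4A2, the siControl values lie on the other side from the flagged differences. That contrast was not tested.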

How the results depend on the processing

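No value of a member changed sign while called. Member counts called that moved by more than 1.5 times were as follows. Footprints in DMSO, EIF4A1 KO against naive: 5 members, and 3 under the DESeq2 Wald test. Under the dose score slope, PP242 called 0 in naive cells (4 with the doses together), 0 in EIF4A1 KO cells (2) and 2 in EIF4A2 KO cells (7), and 0 in the response differences between EIF4A1 KO and naive (3) and between EIF4A1 KO and EIF4A2 KO cells (4). In the siLARP1 inputs 1 member was called, 2 under DESeq2 and 0 with the replicate block. Without single libraries the counts ran from 3 to 5 for DMSO footprints in EIF4A1 KO, 1 to 2 in EIF4A2 KO, 1 to 3 for translation efficiency, 2 to 4 for PP242 in naive, 1 to 2 in EIF4A1 KO, 1 to 3 and 2 to 5 for the 2 response differences that use EIF4A1 KO cells, and 0 to 1 for the siLARP1 inputs. The DMSO libraries of EIF4A1 KO cells are among the shallowest, which limits EIF4EBP1 and EIF4EBP2 in particular.

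For counts over all transcripts, the highest came from testing all distinct transcripts, except for siLARP1 enrichment. Main counts, with the lowest and highest over all alternatives, were 9391 for RNA (5440 to 26611), 4509 for footprints in EIF4A1 KO (2207 to 13443), 1597 for footprints in EIF4A2 KO (523 to 4696), 2412 for translation efficiency (1515 to 7223), 1923 for PP242 in naive cells (289 to 6342), 1235 for PP242 in EIF4A1 KO (0 to 3739). They were 2400 for PP242 in EIF4A2 KO (448 to 7791), 1243 for the response of EIF4A1 KO minus naive (2 to 3684), 1275 for that of EIF4A1 KO minus EIF4A2 KO (1 to 3762), 14 for that of EIF4A2 KO minus naive (0 to 56), 14727 for SBP-eIF4A1 (11934 to 42029). The rest were 15904 for SBP-eIF4A2 (12699 to 44799), 4176 for their difference (2399 to 13212), 13106 for siControl (9992 to 37604), 105 for siLARP1 inputs (18 to 618), 0 for siLARP1 enrichment (0 to 7). Replacing TMM by RLE size factors moved no median of all transcripts by 0.04 or more.

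Replicate numbers were not taken to pair the libraries, since the labels name no source that a number shares, although same-numbered siControl input and pulldown libraries deviated together (0.58). Correlations of same-numbered deviations from the group means were -0.04, -0.19 and -0.01 among the DMSO groups, -0.11 in RNA-seq, 0.06 and 0.13 in the pulldowns without siRNA, and 0.58, -0.14 and 0.06 among the siRNA groups. With the replicate block 8 members were called in RNA-seq, 4 and 2 in DMSO footprints of EIF4A1 KO and EIF4A2 KO, 2 in translation efficiency, 6 and 9 in the SBP-eIF4A1 and SBP-eIF4A2 pulldowns, 3 in their difference, 8 after siControl and 0 in the siLARP1 inputs. Crossing the numbers in RNA-seq, added after seeing the data, gave 8. No paired analysis was possible because the PP242 libraries carry no replicate numbers, for the PP242 comparisons, and because there is 1 siLARP1 pulldown library, for the change of enrichment.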
